A study of Mus musculus with 17 samples.

Results

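Major histocompatibility complex (MHC) class II molecules show peptides from engulfed protein to CD4+ T cells. They are dimers of an alpha and a beta chain, carried mainly by macrophages, dendritic cells and B cells. A new dimer is held by the invariant chain, an H2-DM dimer then exchanges the remnant of that chain for an antigen peptide, and the transactivator CIITA switches the genes on together through a shared promoter module. In adipose tissue, class II genes are known chiefly from the macrophages and dendritic cells among the fat cells. The 8 genes described here are H2-Aa, H2-Ab1 and H2-Eb1 (chains), Cd74 (invariant chain), H2-DMa and H2-DMb1 (H2-DM), Ciita, and Cd86, a costimulator that T cells read through CD28. They were chosen by name, with C2ta as the file's name of Ciita, and they are 8 of 27573 gene names on the array, measured by 14 of 41174 probes. All 8 were among the 18130 genes tested, through 13 probes. They were set against Adgre1, which encodes a surface receptor used to mark mouse macrophages and is named Emr1 on the array, and Itgax, which encodes CD11c of dendritic cells and of some macrophages.

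Both groups were adult male C57BL/6J mice of wild type fed for 13 weeks on food rich in fat, which gave 30% of the energy. The carbohydrate had a high glycemic index in 9 mice (HGI) and a low one in 8 mice (LGI). The index says how steeply blood glucose climbs after a carbohydrate is eaten. RNA of the epididymal white fat of each mouse was labelled with Cy5 and hybridized to its own Agilent array against a Cy3 pool of all the mice's RNA, and 2 of the 19 arrays made had been excluded by the authors. Each value is a log2 ratio of a mouse to that pool, and each difference is HGI minus LGI. The labels number the mice and do not say which were housed together, so the p-values rest on the spread among these 17 samples alone. No group of mice on a low-fat diet was analysed here.

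In Cy5, 54.2% to 66.7% of an array's gene spots were well above background, and precision is limited by how many arrays there are. HGI 9 and HGI 10 stood apart: over all genes their mutual correlation was 0.808, and that with the remaining 15 arrays was -0.0492 to 0.143. Their mean log2 ratio of 5 seminal vesicle genes was 1.34 and 1.39, against -4.39 to -3.97 in LGI. Results are therefore given with and without these 2 mice. The arrays were scanned in 1 day. The first 8 (HGI 1, 3, 5 and 9, LGI 2, 6, 7 and 9) were brighter in Cy5 than the later 9, with a median intensity of 165 to 185 against 127 to 155, so differences are also given within these scan groups.

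Fat tissue was the labelled tissue, and the adipocyte genes Adipoq, Plin1, Fabp4, Pparg, Lep and Lipe were well above background on all 17 arrays, with Cidec on 16. All 8 macrophage markers were tested, as were all 8 B cell markers. Of the dendritic cell markers, Clec9a and Ccr7 were well above background on 0 arrays. In RNA of whole tissue, fewer cells of a type and less RNA per cell cannot be told apart.

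The promoter module of class II genes holds an X box, bound by the RFX complex, and a Y box, bound by NF-Y, and CIITA docks on the proteins that sit there. RefSeq promoters (build GRCm38.p6) matched 4 of the 8 genes: H2-Aa, H2-Eb1, H2-DMa and H2-DMb1. The 250 bases before the start are shown for the 3 in which a Y box sequence lay nearest the start. On the strand shown it lay at -48 in H2-Aa, -59 in H2-Eb1 and -61 in H2-DMb1. On the other strand H2-Eb1 held one at -35. Capitals mark the letters ATTGG (Y box) and GCAAC (core of the X box), searched on both strands, so CCAAT is ATTGG read on the other strand.
H2-Aa, chr17:34287824-34288073, minus strand: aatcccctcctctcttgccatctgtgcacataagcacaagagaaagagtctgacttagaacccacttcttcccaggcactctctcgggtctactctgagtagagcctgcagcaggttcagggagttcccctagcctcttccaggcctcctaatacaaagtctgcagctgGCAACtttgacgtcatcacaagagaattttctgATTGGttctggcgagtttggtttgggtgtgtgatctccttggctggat
H2-Eb1, chr17:34305617-34305866, plus strand: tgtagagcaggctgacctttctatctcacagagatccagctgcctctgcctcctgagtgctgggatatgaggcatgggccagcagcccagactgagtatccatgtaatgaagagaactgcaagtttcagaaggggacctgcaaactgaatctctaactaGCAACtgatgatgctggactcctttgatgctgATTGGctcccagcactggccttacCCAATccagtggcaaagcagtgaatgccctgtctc
H2-DMb1, chr17:34152941-34153190, plus strand: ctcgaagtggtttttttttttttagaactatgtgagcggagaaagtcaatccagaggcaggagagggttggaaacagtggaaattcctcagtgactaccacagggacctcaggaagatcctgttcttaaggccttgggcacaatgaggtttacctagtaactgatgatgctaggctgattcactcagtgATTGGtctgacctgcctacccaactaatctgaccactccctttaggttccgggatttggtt

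In H2-Aa the GCAAC began at position -81 relative to the start and was followed by ATTGG after 28 bases. In H2-Eb1 it began at -91 and ATTGG followed after 27 bases, with a further match on the other strand at -35. GCAAC followed by ATTGG on the same strand after 10 to 40 bases was present in 1.21% of 32851 promoter windows of this length, while ATTGG alone was present in 33.8% and GCAAC alone in 29.9%. H2-DMb1 held ATTGG at -61 and no exact GCAAC. Upstream of that ATTGG stand the letters gtaactgatgatgct, close to GCAACtgatgatgct in H2-Eb1. Only exact letters were searched, so an X box that departs from GCAAC would be missed. H2-DMa has 2 RefSeq starts on chromosome 17. The window of the upstream one held GCAAC on the other strand at -7 and that of the downstream one ATTGG at -198. These matches are letters in a window and no measure of binding.

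No class II gene differed between the diets past the adjusted threshold. In limma, with Benjamini-Hochberg adjustment over 18130 genes at 0.05, 0 of 8 were higher and 0 lower in HGI, as were 0% of all genes in either direction. At an unadjusted p under 0.05, again 0 of the 8 were higher and 0 lower, beside 3.97% and 3.77% of all genes. The difference was above 0 for 6 of the 8, beside 52.6% of all genes. Its median was 0.075, against 0.0058 over all genes tested. Since 6 of the 8 genes moved together across mice, as given below, their signs are not independent. The plot of the members by mouse shows that the diets overlapped for each gene, and 0.0386% of all genes had diets that did not overlap.

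**Figure D1:**
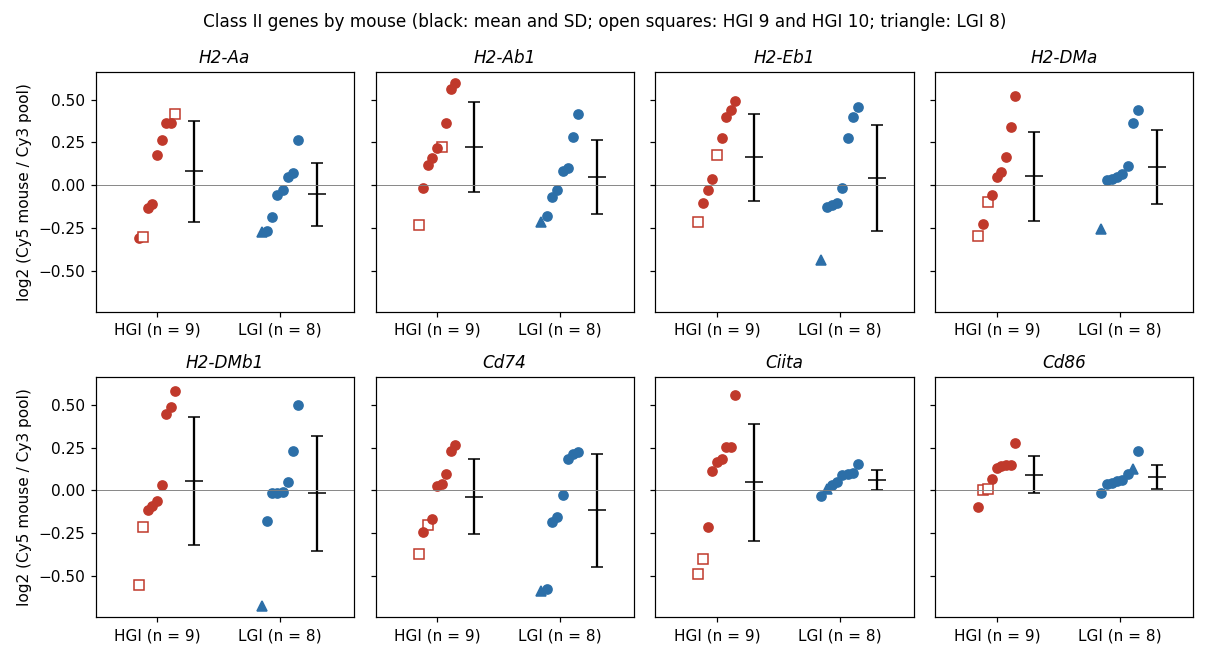
Log2 ratio of each mouse to the pool (vertical axis) for the 8 class II genes, with HGI mice (red, n = 9) left of LGI mice (blue, n = 8), and the mean with its SD in black. The 2 diets overlap for every gene, and Ciita spreads from -0.49 to 0.56 in HGI against -0.033 to 0.15 in LGI.

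Of the chains, H2-Ab1 encodes the beta chain of I-A, the class II molecule that C57BL/6 mice display. Its lowest, median and highest log2 ratio were -0.23, 0.22 and 0.60 in HGI and -0.21, 0.026 and 0.41 in LGI. In 7 of 9 HGI mice it lay above the LGI median, and HGI 6 and HGI 4 were the 2 highest of all mice. The difference was 0.17 ± 0.11 (SE; limma adjusted p = 0.729). H2-Aa, the alpha chain that pairs with it, had -0.31, 0.18 and 0.42 in HGI and -0.28, -0.043 and 0.27 in LGI, a difference of 0.13 ± 0.11 (SE; limma adjusted p = 0.799). HGI 10 was the highest and HGI 1 the lowest mouse of all for H2-Aa.

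H2-Eb1 encodes the beta chain of I-E. C57BL/6 mice do not make I-E because its alpha chain gene, H2-Ea, is defective in them, and the H2-Ea probe was well above background on 0 of 17 arrays. The H2-Eb1 probe carries an accession that its file describes as I-A beta of another strain, so its name and description differ, and its values are given under the name. It had -0.22, 0.18 and 0.49 in HGI and -0.44, -0.061 and 0.46 in LGI, a difference of 0.12 ± 0.12 (SE; limma adjusted p = 0.834). LGI 8 was the lowest of all mice and HGI 4 the highest. A clone probe outside the 8 genes, named AK005018 and described as a class II antigen, was singled out after its values were seen. It averaged 0.070 ± 0.27 in HGI (SD, n = 9) and -0.19 ± 0.29 in LGI (SD, n = 8).

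The other probes of the chains gave differences of the same sign. The second H2-Aa probe had -0.51, 0.12 and 0.43 in HGI and -0.67, -0.31 and 0.10 in LGI, a difference of 0.28 ± 0.13 (SE). The 3 other H2-Ab1 probes had differences of 0.22, 0.15 and 0.29. Across mice these probes followed the one used, at r = 0.868 for H2-Aa and 0.869 to 0.887 for H2-Ab1. The brightest probe stands for a gene here, and for both genes a dimmer probe had a larger difference. In limma fits of single probes the unadjusted p was 0.045 for the second H2-Aa probe. It was 0.052 to 0.28 for the 3 other H2-Ab1 probes. The count of 0 of 8 genes under 0.05 thus holds for the brightest probes.

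Cd74, the invariant chain, had -0.37, 0.028 and 0.26 in HGI and -0.59, -0.093 and 0.22 in LGI. The 2 lowest mice were both LGI, and the ranges overlapped over most of their length. The difference was 0.078 ± 0.12 (SE; limma adjusted p = 0.900). With H2-DM, which loads the peptide, H2-DMa had -0.30, 0.046 and 0.52 in HGI and -0.26, 0.056 and 0.44 in LGI, a difference of -0.053 ± 0.11 (SE; limma adjusted p = 0.925). H2-DMb1 had -0.55, -0.064 and 0.58 in HGI and -0.68, -0.014 and 0.50 in LGI, a difference of 0.072 ± 0.15 (SE; limma adjusted p = 0.930). Both medians were the lower in HGI, while HGI 4 was the highest of all mice for both genes. The second H2-DMb1 probe had a difference of -0.0051.

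Ciita, the transactivator, had -0.49, 0.17 and 0.56 in HGI and -0.033, 0.068 and 0.15 in LGI. Its difference was -0.014 ± 0.11 (SE; limma adjusted p = 0.985). The HGI mice were spread more widely around it than the LGI mice. The SD was 0.343 in HGI (n = 9) and 0.0591 in LGI (n = 8), a ratio of 5.80, and 0.607% of all genes had a ratio at least as large. HGI 9 and HGI 10, at -0.40 and -0.49, and HGI 4, at 0.56, lay farthest from the LGI range. Without HGI 9 and HGI 10 the ratio was 3.87, which 0.485% of genes reached. Of the other 7 class II genes the ratio lay between 0.667 for Cd74 and 1.59 for H2-Aa. This contrast in spread was picked out after the values were seen and was not tested.

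Cd86 was the dimmest of the 8 genes. The probe used was well above background on 5 HGI and 6 LGI arrays, and the second one, on 2 HGI and 0 LGI arrays, was not tested. Its ratios were -0.098, 0.13 and 0.27 in HGI and -0.015, 0.057 and 0.23 in LGI, a difference of 0.014 ± 0.057 (SE; limma adjusted p = 0.970). Its SD within the diets, 0.094, was below that of most genes, at percentile 2.76. That low spread depends on how a dim probe is processed. The SE of the Cd86 difference, 0.057 here, was 0.24 in the scanner software's processed signals and 0.032 with no background correction. The other 7 genes had SDs within the diets of 0.24 to 0.36, at percentiles 84.5 to 95.6 of all genes. That spread lay in the mice's channel: for these 7 the SD of log2 Cy5 was 0.22 to 0.34, against 0.041 to 0.10 for the pool's Cy3.

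Leaving out HGI 9 and HGI 10 moved all 8 differences up and called none. H2-Ab1 was then at 0.24 (limma adjusted p = 0.598), H2-DMb1 at 0.20, H2-Eb1 at 0.17, Cd74 at 0.15 and H2-Aa at 0.14. Ciita moved to 0.13 and H2-DMa to 0.018, so both changed sign, and 0% of all genes were called higher. At an unadjusted p under 0.05, 1 of the 8 was then higher, H2-Ab1, beside 5.04% of all genes. On the probes used, the difference had opposite signs in the scan groups for all 8. Among the first 8 arrays it lay between -0.22 for H2-DMa and -0.012 for Cd86, and among the later 9 between 0.027 for Cd86 and 0.40 for H2-Ab1. For H2-Ab1 it was -0.090 and 0.40, for H2-Aa -0.13 and 0.36, for Cd74 -0.13 and 0.28. On 2 other probes of the chains the sign did not turn: the second H2-Aa probe was at 0.034 and 0.48, and 1 of the 3 other H2-Ab1 probes at 0.091 and 0.46. The change of the diet difference between the scan groups had an unadjusted limma p of 0.0226 for H2-Ab1 and 0.0279 for H2-Aa, and over 0.05 for the other 6 genes, beside 1.03% of all genes under 0.05. The adjusted p was 1.00 for each of the 8.

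**Figure D2:**
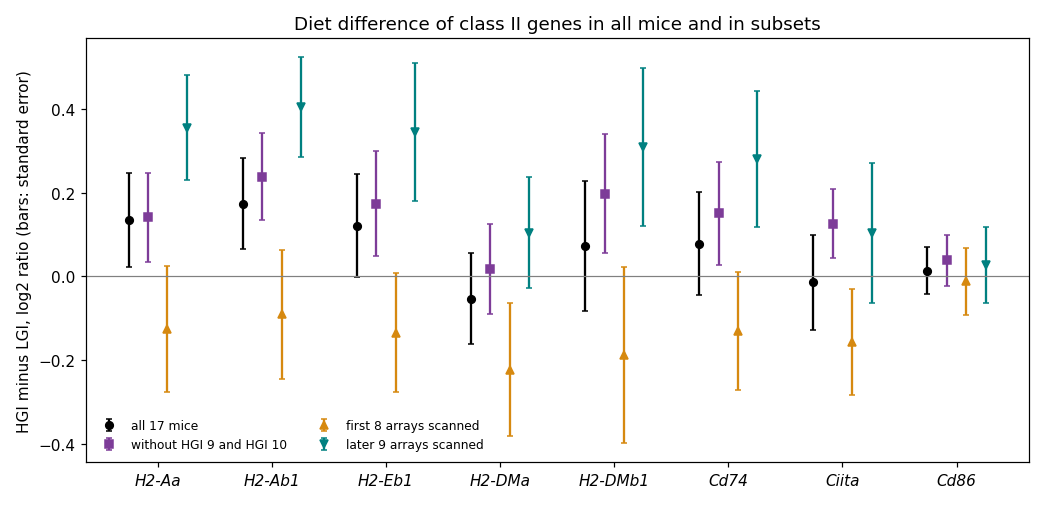
HGI minus LGI in log2 ratio (vertical axis) for each class II gene, over all 17 mice, without HGI 9 and HGI 10, and within the first 8 and the later 9 arrays scanned, with the standard error as bars. The differences of the first 8 arrays lie below 0 and those of the later 9 above 0 for all 8 genes on the probes used.

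Across mice, 6 of the 8 genes moved together. The 15 pairs among H2-Aa, H2-Ab1, H2-Eb1, Cd74, H2-DMa and H2-DMb1 had Pearson r of 0.579 to 0.879 over 17 mice, with a median of 0.727, and 0.514 to 0.900 without HGI 9 and HGI 10. Genes on 1 array share that array's hybridization and normalization, so these are descriptions. Over all 18129 other genes, H2-DMb1, H2-Aa and H2-Eb1 ranked 1, 2 and 4 in r with H2-Ab1, H2-DMa ranked 93 and Cd74 117. The description of the H2-Eb1 probe, given above, names I-A beta, the product of H2-Ab1. Whether this probe measures a gene apart from H2-Ab1 was not tested, and the mean used below includes it. The closest pair was H2-Ab1 with H2-DMb1.

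Ciita ranked 779 and had r of 0.228 to 0.655 with the other 7 genes. It was nearest to H2-DMa (0.655) and H2-DMb1 (0.602), and farthest from Cd74 (0.228). Its r with H2-Aa was 0.235 over 17 mice and 0.570 without HGI 9 and HGI 10. HGI 10 had the highest H2-Aa and the lowest Ciita of all mice. Cd86 ranked 6577, with r of -0.135 to 0.0948 with the 6 and of 0.548 with Ciita.

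**Figure D3:**
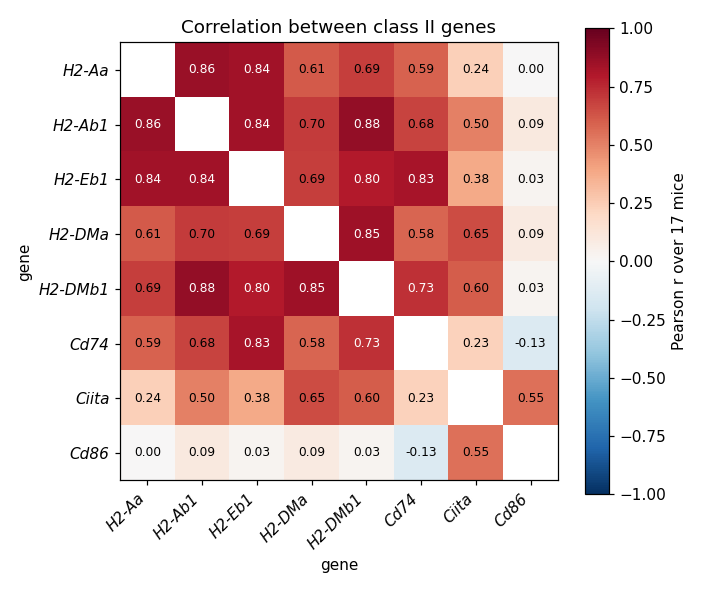
Pearson r over 17 mice between each pair of class II genes (rows and columns), with the colour running from -1 (blue) to 1 (red). The 6 genes from H2-Aa to Cd74 form a block of r from 0.579 to 0.879, Ciita lies lower and Cd86 is close to 0 with all but Ciita.

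The 10 genes most like the mean of H2-Aa, H2-Ab1, H2-Eb1 and Cd74 were taken from 14329 tested genes with a symbol that is no clone or model name. They were Bcl2a1b, Pltp, Ctss, Cyp4f18, Ear1, Ppic, Ninj1, Clec4a3, Rmc1 and Ccna2, with r of 0.821 to 0.856 over 17 mice and 0.817 to 0.905 without HGI 9 and HGI 10. Ctss encodes cathepsin S, the protease that trims the invariant chain, Pltp a phospholipid transfer protein, and Ccna2 the cell-cycle regulator cyclin A2. All 10 had positive diet differences, between 0.079 for Cyp4f18 and 0.39 for Ctss, with limma adjusted p of 0.616 to 0.861. Over all genes tested, 52.6% had a positive difference. The 10 were picked for following a mean whose own genes all had positive differences. Their shared sign is therefore not independent of that choice and says nothing further about the diets.

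Several macrophage markers moved with this mean. The r was over 0.5 for 5 of 8 macrophage markers, with a median of 0.598, led by Lyz2 (lysozyme, 0.806), Cd68 (0.760) and Adgre1 (0.737), with C1qa at 0.693 and Mrc1 at 0.503. It was over 0.5 for 0 of 8 B cell, 0 of 5 dendritic cell and 0 of 6 T cell markers tested, and for 4.37% of all genes. Itgax stands among those dendritic cell markers on its brighter probe, on which 3 mice form a separate cluster (described below), while its RefSeq probe had r = 0.688 with the mean. Itgam and Mertk, macrophage markers too, were at 0.184 and 0.0271. The dimmest lymphocyte markers tested were Blk and Pax5, well above background on 8 arrays, Cd79a, Cd22 and Cd8a on 9, and Cd3d on 11. The r of these genes carries little weight. The mesothelium markers Upk3b, Lrrn4, Msln and Wt1 ran the other way, at -0.555 to -0.401. Of 7 adipocyte markers 0 were over 0.5 and the median was -0.125, with values between -0.542 for Plin1, the coat protein of the fat droplet, and 0.480 for Lep (leptin). Without HGI 9 and HGI 10 the median r was 0.57 for macrophage, -0.073 for B cell, -0.095 for dendritic cell and 0.021 for T cell markers. The T cell marker Cd3e was then at 0.520, Mrc1 at 0.485 and Plin1 at -0.851. The median difference between the diets was -0.30 for the 4 mesothelium markers and 0.065 for the 8 macrophage markers, and 0 genes of either list were called. The part of these cells in the class II values was not tested.

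Adgre1 itself did not pass between the diets. It had -0.13, 0.23 and 0.83 in HGI and -0.10, 0.13 and 0.30 in LGI, a difference of 0.091 ± 0.11 (SE; limma adjusted p = 0.860). HGI 4, at 0.83, and HGI 3, at 0.45, lay above all LGI mice, and HGI 9 was the lowest of all. Its second probe was well above background on 0 arrays and was not used.

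Higher Adgre1 went with higher class II genes. When every gene was fitted on Adgre1 over the 17 mice, 4 of the 8 were called higher with it in limma, beside 1.01% of all genes, and 0 were called lower, beside 0.0717%. They were H2-DMa, H2-DMb1, H2-Eb1 and H2-Ab1, with limma adjusted p of 0.0114, 0.0147, 0.0327 and 0.0445. H2-DMb1 changed by 1.12 ± 0.22 on the log2 scale (SE) for 1 log2 unit of Adgre1, H2-Eb1 by 0.86 ± 0.19, H2-DMa by 0.80 ± 0.15 and H2-Ab1 by 0.76 ± 0.18. Ciita, H2-Aa and Cd74 had slopes of 0.72, 0.71 and 0.62 with limma adjusted p of 0.0672, 0.0827 and 0.225, and Cd86 0.13 with 0.674. These fits and the correlations below rest on the same values and are not independent of each other.

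H2-DMa had Pearson r = 0.816 (permutation p = 2e-05) and Spearman rho = 0.855 (permutation p = 3e-05) with Adgre1 over 17 mice. H2-DMb1 had r = 0.769 (p = 0.00024) and rho = 0.850 (p = 7e-05), both by permutation. H2-Eb1 had r = 0.738 (p = 0.00042) and rho = 0.836 (p = 8e-05), and H2-Ab1 r = 0.725 (p = 0.00066) and rho = 0.713 (p = 0.00185), by permutation. Over 17 mice the order of r thus put both H2-DM genes ahead of the chains. Without HGI 9 and HGI 10 it did not. H2-Aa was then at 0.833, H2-DMa at 0.782, H2-Eb1 at 0.745, H2-Ab1 at 0.728 and H2-DMb1 at 0.726. The order held within HGI but not within LGI, where H2-Aa and H2-Eb1 were above both H2-DM genes. Ciita had r = 0.697 (permutation p = 0.00253) and rho = 0.591 (permutation p = 0.0141). H2-Aa had r = 0.676 (permutation p = 0.00175) and rho = 0.706 (permutation p = 0.00229). Cd74 had r = 0.548 (permutation p = 0.0213) and rho = 0.694 (permutation p = 0.00248), and Cd86 r = 0.353 (permutation p = 0.165) and rho = 0.240 (permutation p = 0.352). The 24 relations were those of 8 genes with Adgre1 and with 2 probes of Itgax. Those with Adgre1 and the RefSeq probe were computed over several sets of mice, each by r and by rho. The permutation p-values are not adjusted for their number, and the Benjamini-Hochberg values are those of the fits over all genes.

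**Figure D4:**
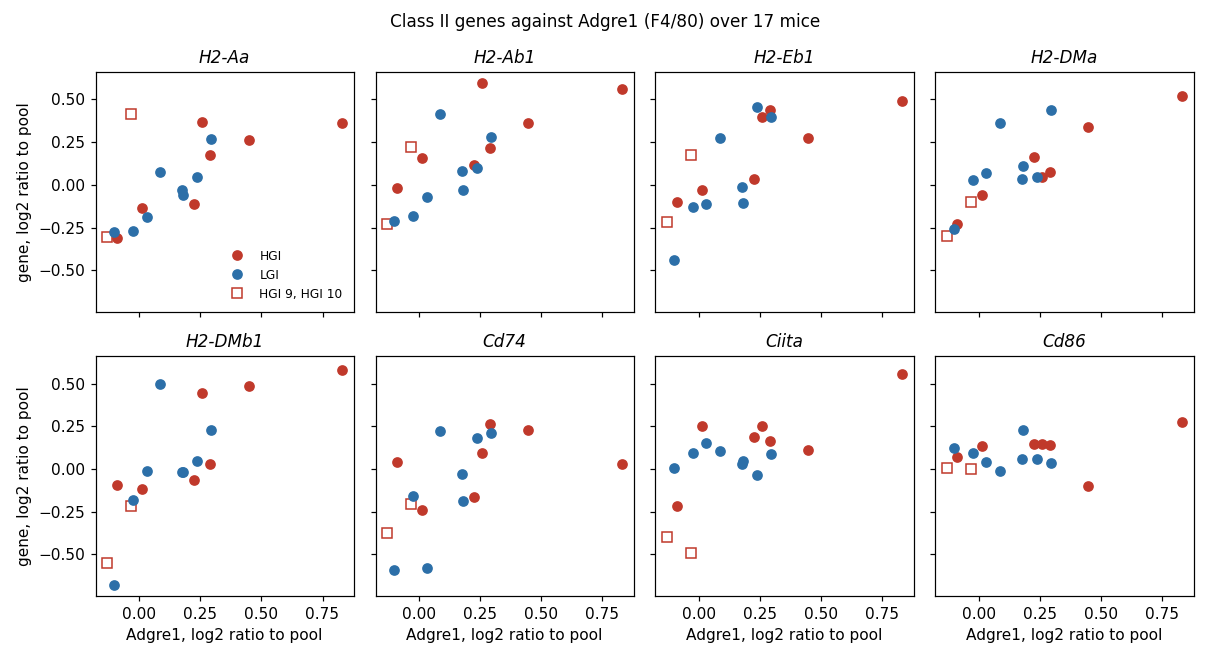
Log2 ratio to the pool of each class II gene (vertical axes) against that of Adgre1 (horizontal axes), a point per mouse, HGI in red and LGI in blue, with HGI 9 and HGI 10 as open squares. HGI 4, at 0.83 of Adgre1, lies far to the right in every panel.

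HGI 4 and HGI 9 lay farthest from the median of Adgre1. Without them r was 0.725 for H2-DMa, 0.714 for H2-Eb1, 0.697 for H2-DMb1, 0.662 for Cd74, 0.604 for H2-Aa and 0.602 for H2-Ab1, with permutation p of 0.00224 to 0.0183 over 15 mice. It was 0.428 for Ciita (permutation p = 0.111) and -0.158 for Cd86 (permutation p = 0.577). The slope of Ciita was then 0.50, against 0.72 over 17 mice, and whether its relation rests on those mice was not tested. Without HGI 4 alone, 0 of the 8 were called over all genes, with limma adjusted p of 0.0542 for H2-DMb1, 0.0638 for H2-Eb1 and H2-DMa and 0.153 for H2-Ab1. Their slopes were then larger than over 17 mice, at 1.43, 1.17, 0.96 and 0.91, and that of Cd74 was 1.13 (limma adjusted p = 0.113).

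Without HGI 9 and HGI 10, 2 of the 8 were called higher with Adgre1, H2-Aa (limma adjusted p = 0.0181) and H2-DMa (0.0455), beside 0.524% of all genes, and 0 lower, beside 0.0552%. The r of H2-Aa was then 0.833 (permutation p = 1e-05, the smallest that 100000 resamples can give). HGI 10, with the highest H2-Aa of all mice and Adgre1 at -0.031, was left out there. With diet as a covariate 2 of the 8 were called, H2-DMa and H2-DMb1, beside 0.789% of all genes, and 0 lower, beside 0.0441%.

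Within diets and scan groups the 6 genes from H2-Aa to Cd74 kept r above 0.5 with Adgre1. Within HGI, H2-DMa had r = 0.968 (exact permutation p = 3.86e-05, n = 9), H2-DMb1 0.863 (exact permutation p = 0.00201) and Cd74 0.564 (exact permutation p = 0.112). Within LGI, H2-Aa had r = 0.885 (exact permutation p = 0.00427, n = 8), H2-DMa 0.652 (exact permutation p = 0.0778) and H2-DMb1 0.635 (exact permutation p = 0.0824). Over the first 8 arrays scanned r was 0.626 for Cd74 to 0.893 for H2-Aa, and over the later 9 it was 0.548 for H2-Aa to 0.945 for H2-DMa. Ciita differed from the 6 in its values within LGI, with r = -0.205 (exact permutation p = 0.625), against 0.800 within HGI (exact permutation p = 0.00967). The difference between the diets in r was not tested, and the spread of Ciita in LGI was small, as given above.

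Itgax had 2 probes. On the brighter one, LGI 8, HGI 9 and HGI 10 were at 1.37, 1.47 and 1.54 and the other 14 mice between -1.06 and -0.58. The ratios thus form separate clusters and no r over all 17 is given. The SD of this probe was 0.72 in log2 Cy5 and 0.39 in the pool's Cy3, against medians of 0.17 and 0.091 over all genes. The pool's channel therefore varied too, and its part in the clusters was not tested. Over the 14 mice the r between the 2 probes was 0.201. The fit on this probe called 2 of the 8 lower with it, H2-DMb1 (limma adjusted p = 0.0129) and Ciita (0.0218), beside 1.25% of all genes, and 0 higher, beside 5.53%. Without HGI 9 and HGI 10 it called 0 lower, beside 0.0221%, and 0 higher, beside 0.0496%. Over the 14 mice r lay between -0.270 for Cd74 and 0.287 for Cd86, with permutation p of 0.318 to 0.863.

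The dimmer probe, which carries the RefSeq accession of Itgax, was chosen for a second fit after the data were seen. It had -0.37, 0.17 and 0.64 in HGI and -0.53, -0.35 and 0.16 in LGI, and 8 of 9 HGI mice lay above the LGI median. Its difference was 0.43 ± 0.12 (SE; unadjusted p = 0.0020 in a limma fit of single probes). For the brighter probe it was 0.30 ± 0.38 (SE; limma adjusted p = 0.866). The p of the RefSeq probe is not adjusted for the number of probes or for the choice of probe. On the RefSeq probe, 0 of the 8 were called over 17 mice, beside 1.37% of all genes higher with it and 0.414% lower.

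H2-Ab1 had r = 0.684 (permutation p = 0.00291) and rho = 0.684 (permutation p = 0.00319) with the RefSeq probe of Itgax. H2-Eb1 had r = 0.634 (permutation p = 0.00677) and rho = 0.694 (permutation p = 0.00273), and H2-Aa r = 0.619 (permutation p = 0.00907) and rho = 0.586 (permutation p = 0.0155). Here the chains came first, and H2-DMa, which had the highest r with Adgre1, came after the other 5 of the 6 genes, at r = 0.477 (permutation p = 0.0530) and rho = 0.424 (permutation p = 0.0906). H2-DMb1 had r = 0.600 (permutation p = 0.0109) and rho = 0.547 (permutation p = 0.0251), and Cd74 r = 0.572 (permutation p = 0.0169) and rho = 0.588 (permutation p = 0.0149). Ciita had r = 0.315 (permutation p = 0.222) and Cd86 -0.0193 (permutation p = 0.942). Whether any of these r differ from those with Adgre1 was not tested.

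Without HGI 3 and HGI 4, the mice farthest from the median of this probe, r was 0.574 for H2-Eb1, 0.572 for H2-Ab1, 0.541 for Cd74 and 0.494 for H2-Aa, with permutation p of 0.0260 to 0.0631. It was 0.370 for H2-DMb1 and 0.164 for H2-DMa (permutation p = 0.177 and 0.557). Within LGI, which holds neither mouse, the r of H2-DMa was 0.55 (exact permutation p = 0.163). With diet as a covariate the slopes on this probe were 0.86 for H2-DMb1 and 0.60 for H2-DMa, against 0.59 and 0.315 without it. Their limma adjusted p was then 0.0652 and 0.0675. Whether their relation rests on HGI 3 and HGI 4 was not tested. Without HGI 9 and HGI 10, H2-Ab1 and H2-Aa were called higher with the RefSeq probe (limma adjusted p = 0.0412 and 0.0441), 2 of the 8 beside 1.94% of all genes, and 0 lower, beside 0.877%. Within HGI, r was 0.856 for H2-DMb1 (exact permutation p = 0.00455) and 0.523 for H2-Aa (exact permutation p = 0.148). Within LGI it was 0.391 for H2-DMb1 (exact permutation p = 0.316) and 0.795 for H2-Aa (exact permutation p = 0.0175). Over the first 8 arrays the r of H2-Ab1 was 0.483 (exact permutation p = 0.227), and over the later 9 it was 0.891 (exact permutation p = 0.000896).

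**Figure D5:**
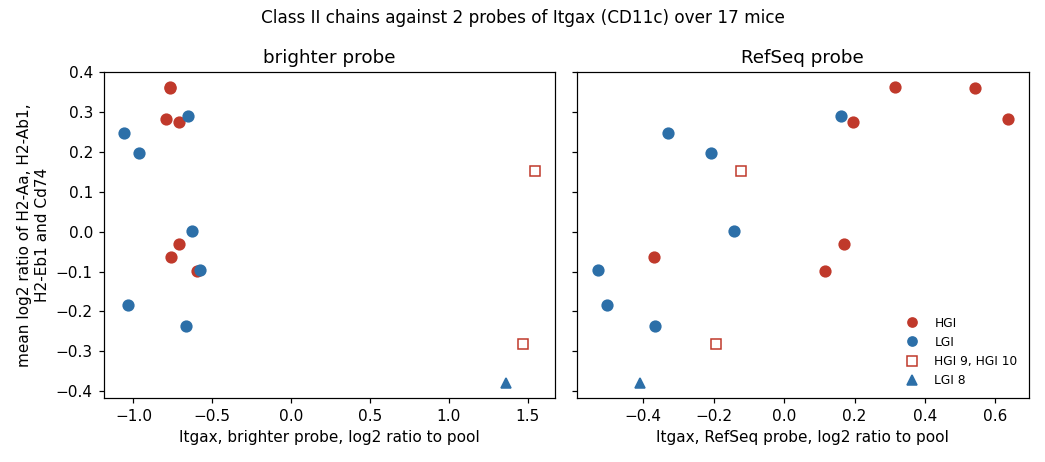
Mean log2 ratio of H2-Aa, H2-Ab1, H2-Eb1 and Cd74 (vertical axis) against Itgax on the brighter probe (left) and the RefSeq probe (right), a point per mouse, HGI in red, LGI in blue, HGI 9 and HGI 10 as open squares and LGI 8 as a triangle. On the left these 3 mice stand apart, at 1.37 to 1.54, and on the right the 3 highest are HGI mice.

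The other genes of the pathway were followed as a list of 38, of which 26 were tested. None passed the adjusted threshold in limma, and 14 differences were above 0 and 12 below, with a median of 0.011. At an unadjusted p under 0.05, 4 were higher and 0 lower in HGI, beside 3.97% and 3.77% of all genes. Ifi30, the lysosomal thiol reductase that opens disulfide bonds of antigens, had a difference of 0.28 ± 0.10 (SE; limma adjusted p = 0.553). Cathepsin L (Ctsl) had 0.20 ± 0.085 (SE; limma adjusted p = 0.597) and cathepsin S (Ctss) 0.39 ± 0.17 (SE; limma adjusted p = 0.616). The fourth was Irf4, at 0.34, named after its value was seen. The 3 with the smallest p below 0 were Sppl2a, a protease that clears the remnant of the invariant chain (-0.15), Irf1, an interferon-induced factor that acts on Ciita (-0.11), and Nfyb, a subunit of NF-Y (-0.072), with limma adjusted p of 0.719 to 0.792.

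Of 9 tested genes of processing and turnover, 5 had r over 0.5 with the mean of the 4 class II genes across mice: Ctss (0.842), Ifi30 (0.716), Lgmn, which encodes legumain (0.715), Ctsb, cathepsin B (0.689), and Ctsd, cathepsin D (0.559). The other 4 were Ctsl at 0.483, Marchf1 at 0.459, Sppl2a at 0.175 and Marchf8 at -0.266. Of the genes that control the class II promoters, Irf8 had 0.737 and Ifngr2, a chain of the interferon gamma receptor, 0.640, while of the RFX and NF-Y subunits Rfxank, Nfya and Nfyb had -0.138 to -0.106, Nfyc 0.222 and Rfxap 0.286. In all, 7 of the 26 were over 0.5, beside 4.37% of all genes. H2-Oa, a chain of the H2-DM inhibitor H2-O, had -0.061. Not tested, because too few arrays were above background, were 12 genes, among them H2-Ob, Spi1, Ifng, Cd80, Cd40 and Cd28.

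Class I molecules, which show peptides of the cell's own proteins to CD8+ T cells, were set beside class II through 10 tested genes of a list of 12. None passed the adjusted threshold, and the median difference was 0.079, with 6 above 0 and 4 below. Tap2, a subunit of the peptide transporter, had -0.21 ± 0.068 (SE; limma adjusted p = 0.522) and Psmb8, an immunoproteasome subunit, -0.11 ± 0.10 (SE; limma adjusted p = 0.810). Calr (calreticulin) had 0.14 ± 0.076 (SE; limma adjusted p = 0.675) and B2m (beta-2 microglobulin) 0.36 ± 0.20 (SE; limma adjusted p = 0.685). Their r with the class II mean had a median of 0.149, and 2 of 10 were over 0.5, H2-K1 at 0.683 and Psmb10 at 0.606.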

How the data were processed

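Epididymal fat RNA of 17 mice was measured on 2-colour Agilent arrays. The deposited scanner files hold spot and background intensities written by Agilent Feature Extraction (9.1.3.1 per the file headers, 9.5.1.1 per the submitters' processing notes), with processed signals that the scanner software had background-subtracted and dye-normalized, per the file headers. The authors also deposited log2 values of 19836 probes, with column medians of 8.33. Over probes they correlated at 0.980 to 0.985 with log2 Cy5, and their deviations from a probe's mean correlated with the log ratios' own at 0.427 to 0.846, so their direction is that of Cy5. Their scale and centring are not known, and they served as an alternative only. The genome build of the array is not given in the sources used here.

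Intensities were analysed in limma 3.58.1 (R 4.3.3), with Python 3.11.15, numpy 2.4.6 and matplotlib 3.10.9 for permutation tests, motifs and plots. Background was corrected by normexp (offset 50) and log2 Cy5/Cy3 normalized by loess within arrays, with control and flagged spots at weight 0. Tested were probes with Cy5 well above background on 8 arrays or more (25513 probes), and a gene is its brightest tested probe (18130 genes). Probe names were updated through a RefSeq table of GRCm38.p6. limma's lmFit and eBayes compared the diets with no covariate, and in further fits regressed each gene on Adgre1 or Itgax, with Benjamini-Hochberg adjustment over all genes. Correlations have permutation p-values, two-sided, exact under 10 mice and from 100000 resamples otherwise. The fits were tested on simulated data.

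The members and lists were chosen with earlier results of these data known. Named are the 8 genes with Adgre1 and Itgax, the 3 pathway genes with the smallest p in each direction, 2 class I genes in each direction, the 10 genes most like the mean of 4 class II genes, and, as chosen after their values were seen, a few others. The replicate numbers did not pair the mice: deviations of same-numbered mice correlated at -0.379 to 0.260 over 7 pairs. Every array has a slide of its own, so slide could be no block. Alternatives changed the background correction, the normalization, the filter, the probe, the arrays and the covariates.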

Additional observations from a re-analysis of the deposited data

Results flagged for a closer look

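On the brighter Itgax probe, LGI 8 was at 1.37, far from the other 7 LGI mice, whose highest value was -0.58. The gap was 0.801 of the group's whole range, against Dixon's 95% critical value of 0.526 for 8 samples. In the same probe HGI 9 and HGI 10 were at 1.47 and 1.54, and the RefSeq probe of Itgax put the 3 mice at -0.41 (LGI 8), -0.19 and -0.12. It was 1 outlying value in 22 groups looked at, where chance flags about 1 in 20.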

How the results depend on the processing

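Over 36 alternatives (34 for Cd86) 0 of the 8 class II genes were called between the diets. The count over all genes, 0 as reported, was 1 in Cy5 alone, 1 with array weights and 0 to 3 when a mouse was left out (3 without LGI 7). Signs turned mostly near 0. Among the first 8 arrays scanned the differences were -0.13 for H2-Aa, -0.090 for H2-Ab1, -0.14 for H2-Eb1, -0.19 for H2-DMb1, -0.13 for Cd74 and -0.012 for Cd86, and among the later 9 they were 0.10 for H2-DMa and 0.10 for Ciita. Without HGI 9 and HGI 10, H2-DMa was at 0.018 and Ciita at 0.13. With a mouse left out, Ciita ranged from -0.078 to 0.053, H2-DMb1 from -0.022 to 0.15 and Cd86 from -0.0093 to 0.037. Ciita was at 0.015 with median centring, 0.036 with array weights and 0.044 with Itgax as a covariate. H2-DMa was at 0.0031 in the authors' deposited log2 values and 0.0091 with array weights, Cd86 at -0.0066 with no background correction, and H2-DMb1 at -0.031 with Adgre1 as a covariate. With the replicate number as a block over 14 arrays, H2-DMb1 was at -0.045, Cd74 at -0.0035 and Ciita at 0.045, and the same arrays with no block gave the same 3 differences. The block changed no call.

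Of the 8 genes, 4 were called on Adgre1 as reported. The count was 7 with median centring, 2 with diet as a covariate, 2 without HGI 9 and HGI 10 and 1 in Cy5 alone. It was 0 in the authors' deposited log2 values, within HGI, within LGI, within each scan group and without the 2 mice farthest from the median, where the fits also hold fewer mice. Leaving out a mouse gave 0 (HGI 4) to 5 (HGI 10), with 1 without HGI 3 and 2 without HGI 9, LGI 2, LGI 7 or LGI 8. The share of all genes called was not counted with median centring, in Cy5 alone or with a mouse left out. Those counts therefore say nothing particular to the class II genes. The slopes of the 6 genes from H2-Aa to Cd74 were above 0 in all 27 alternatives. Ciita turned to -0.089 within LGI. Cd86 turned to -0.056 within LGI, -0.078 without the 2 farthest mice, -0.13 over the first 8 arrays and -0.027 without HGI 4 (0.22 at the highest with a mouse left out).

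On the brighter Itgax probe 2 were called as reported, and 0 without HGI 9 and HGI 10, within LGI, without the 2 farthest mice, within each scan group, on the RefSeq probe, and without LGI 8, HGI 9 and HGI 10. Leaving out a mouse gave 0 (HGI 9 or HGI 10) to 3, and the share of all genes called was not counted there either. On the RefSeq probe the slopes turned to 0.44 for H2-Aa, 0.48 for H2-Ab1, 0.50 for H2-Eb1, 0.32 for H2-DMa, 0.59 for H2-DMb1, 0.44 for Cd74 and 0.22 for Ciita. With a mouse left out, H2-Aa ranged from -0.14 to 0.021. Cd86 turned to 0.025 without HGI 9 and HGI 10 (the 2 farthest mice too), 0.032 within LGI, 0.0074 with median centring and 0.18 without LGI 8, HGI 9 and HGI 10. The cause of these changes was not tested. Leaving out a mouse in these fits, the RefSeq probe and the 14 mice were alternatives chosen after seeing the data. The Cd86 probe was well above background on 11 of 17 arrays.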
